A study of Mus musculus with 18 samples.

Results

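The 40 genes described here act in the cell cycle and in DNA replication, and each was found by its symbol among the 50584 genes of a count table from mouse choroid plexus, the tissue of epithelium, vessels and stroma in the brain ventricles that makes cerebrospinal fluid. Of these, 23 act in mitosis, 15 in replication and the supply of DNA building blocks, and 2, Hmgb2 and Stmn1, are a chromatin and a microtubule protein that dividing cells hold in quantity. RNA was sequenced from whole choroid plexus of MRL/lpr mice at 12 weeks of age (6 libraries), MRL/+ mice at 12 weeks (3), MRL/lpr mice at 16 weeks (6) and MRL/+ mice at 16 weeks (3). In MRL/lpr animals the death receptor gene Fas is present as its lpr allele on the autoimmune-prone MRL background, and they develop a lupus-like disease. MRL/+ animals share that background without lpr. The study asks about lymphocyte structures in the brain of lupus mice, and the comparisons here ask whether genes of dividing cells differ between strains and ages and whether they follow the level of lymphocyte transcripts. The labels do not say whether libraries come from separate or pooled animals, so the p-values measure only the spread between these samples. In RNA from whole tissue, fewer cells of a type and less RNA per cell cannot be told apart.

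A cell that enters division first loads the MCM helicase onto its DNA with the help of Cdc6, makes nucleotides with ribonucleotide reductase, thymidylate synthase and thymidine kinase, and copies its genome with polymerases held by the Pcna clamp. It then makes the cyclins, kinases, motor proteins and kinetochore proteins that condense and separate the chromosomes, and destroys many of them as it leaves mitosis. Adult choroid plexus epithelium rarely divides, whereas lymphocytes that meet antigen divide quickly. Transcription in the 2 phases differs: replication genes carry sites for E2F factors, while many mitosis genes carry CCAAT boxes bound by NF-Y and a cell cycle homology region, CHR, whose usual letters are TTTGAA.

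Promoters of both groups are shown because the 2 motif families are those that the background above assigns to mitosis and to replication genes. RefSeq promoter windows on GRCm38.p6, from 250 bases before to 50 bases after the start of the gene, were found for 33 of the 40 genes. On either strand, TTTGAA occurred in 14 of 19 mitosis windows (73.7%), 2 of 13 replication windows (15.4%) and 18.1% of 27025 windows of all genes. TTTAAA, a variant of the same element, occurred in 36.8% of mitosis, 23.1% of replication and 13.2% of all windows, and CCAAT in 89.5%, 76.9% and 37.9%. The 4 E2F-type motifs searched had the letters TTCCCGC, or the letters TTGGCGC, or the letters TTCGCGC, or the letters TTGCCGC, and their matches can overlap each other. At least 1 of them occurred in 3 of 19 mitosis windows (15.8%; Mki67, Cdk1 and Ccnb1), 8 of 13 replication windows (61.5%) and 9.69% of all windows. These are matches of letters and not measured binding. The bases before the start site are printed for the 3 mitosis genes and the 3 replication genes with the smallest strain p at 12 weeks among those that hold the motifs before the start, and for Cdk1, which was added after its values were seen. The matches of Mcm3, the replication gene with the smallest p, lie beyond its start and are not printed. In the first 4, capitals mark TTTGAA and CCAAT on either strand. In the last 3, capitals mark the E2F-type motifs on either strand. The positions are chr11:99024192-99024431, minus strand for Top2a, chr2:164769686-164769920, plus strand for Ube2c, chr7:135716457-135716582, minus strand for Mki67, chr10:69352913-69353135, minus strand for Cdk1, chr12:24708004-24708040, plus strand for Rrm2, chr1:128359727-128359829, minus strand for Mcm6 and chr8:75109330-75109381, plus strand for Mcm5.
Top2a: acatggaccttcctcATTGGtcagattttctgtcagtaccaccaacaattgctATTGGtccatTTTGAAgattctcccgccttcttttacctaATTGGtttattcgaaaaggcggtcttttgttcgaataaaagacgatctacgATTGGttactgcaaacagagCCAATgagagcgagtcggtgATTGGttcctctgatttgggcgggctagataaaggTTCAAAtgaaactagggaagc
Ube2c: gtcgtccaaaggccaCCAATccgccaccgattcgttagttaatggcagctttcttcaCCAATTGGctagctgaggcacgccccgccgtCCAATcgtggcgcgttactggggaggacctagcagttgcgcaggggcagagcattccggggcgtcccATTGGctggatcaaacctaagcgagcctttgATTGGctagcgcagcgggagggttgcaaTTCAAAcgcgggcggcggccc
Mki67: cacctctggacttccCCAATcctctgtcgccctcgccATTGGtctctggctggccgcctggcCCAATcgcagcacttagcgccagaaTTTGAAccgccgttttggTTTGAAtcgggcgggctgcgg
Cdk1: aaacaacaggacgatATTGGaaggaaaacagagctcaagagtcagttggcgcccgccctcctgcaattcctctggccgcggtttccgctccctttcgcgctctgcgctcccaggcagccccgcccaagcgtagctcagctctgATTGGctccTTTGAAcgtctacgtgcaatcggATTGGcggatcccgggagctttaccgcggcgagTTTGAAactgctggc
Rrm2: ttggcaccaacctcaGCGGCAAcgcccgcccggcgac
Mcm6: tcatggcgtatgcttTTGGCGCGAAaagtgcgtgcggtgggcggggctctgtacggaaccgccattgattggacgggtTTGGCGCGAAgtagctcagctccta
Mcm5: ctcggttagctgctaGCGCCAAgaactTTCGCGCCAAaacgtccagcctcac

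Total counts ran from 11164284 to 14602253 per library, and intervals on counts cover counting error only, since reads copied by PCR are not independent molecules. Levels are CPM, the counts of a gene relative to the TMM-scaled library size. Ttr, the thyroid hormone carrier made by choroid plexus epithelium, averaged 183000 ± 30900 CPM in MRL/lpr against 162000 ± 27400 CPM in MRL/+ at 12 weeks, and 154000 ± 34900 CPM in MRL/lpr against 208000 ± 22300 CPM in MRL/+ at 16 weeks (SD, n = 6 and 3). Fas had 16 to 67 counts per MRL/lpr and 14 to 21 per MRL/+ library at 12 weeks, and 14 to 66 per MRL/lpr and 23 to 28 per MRL/+ library at 16 weeks, so it does not check the labels. Some libraries held transcripts of neighbouring tissue. The summed CPM of pineal markers at 12 weeks was 87.5 in MRL/lpr replicate 1 and 70.1 in replicate 4, that of cerebellum markers 574 in MRL/+ replicate 1 of 12 weeks, and that of muscle markers 611 in MRL/+ replicate 1 of 16 weeks. Fits described as without neighbouring tissue refer to these libraries only. Smaller amounts remained elsewhere. Cerebellum markers reached 315 CPM in 12-week MRL/lpr replicate 2. For 16-week MRL/lpr they were at 320 (replicate 1), 244 (replicate 2) and 212 CPM (replicate 3). Pituitary markers reached 88.1 CPM in 12-week MRL/lpr. All 40 genes passed the filter on low counts. On the 6 MRL/+ libraries alone 28 of them would pass and 12, all mitosis genes, would not, so those 12 entered the tests through their MRL/lpr libraries.

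At 12 weeks, 10 of 23 mitosis genes and 1 of 15 replication genes were higher in MRL/lpr than in MRL/+ choroid plexus, and the other members of both groups did not pass the test. By edgeR's quasi-likelihood test with Benjamini-Hochberg adjustment over 16598 genes, 12 of the 40 rose at an adjusted p under 0.05 and 0 fell, against 5.01% of all genes that rose. The remaining called gene was Hmgb2. The median log2 fold change was 1.87 over the mitosis genes, 0.48 over the replication genes and -0.01 over all genes. Every MRL/lpr library was above every MRL/+ library for 27 of the 40 genes, 18 of mitosis and 8 of replication, against 8.59% of all genes. Of the 28 genes that would pass on MRL/+ alone 5 rose, and of the other 12, 7 rose. All of those 12 are among the 27 whose groups did not overlap, and all are mitosis genes. The count without overlap and the mitosis median therefore rest in part on genes that entered through MRL/lpr, which no replication gene did. The calls rest on having all 3 controls, as did those over all genes. Without MRL/+ replicate 1, 2 and 3, 1, 3 and 0 of the 40 were called, against 1.33%, 1.88% and 1.64% of all genes that rose. Without the libraries that held neighbouring tissue 0 were called, against 0.168% of all genes, and the median over the 40 genes was 1.56. There 21 of the 40 had an unadjusted p under 0.05, but the share of all genes with such a p was not counted in that fit. The 21 therefore has no background. With all libraries 26 of the 40 had such a p, against 3560 of the 16598 genes. DESeq2 called 21, against 7.34% of all genes that rose.

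**Figure D1:**
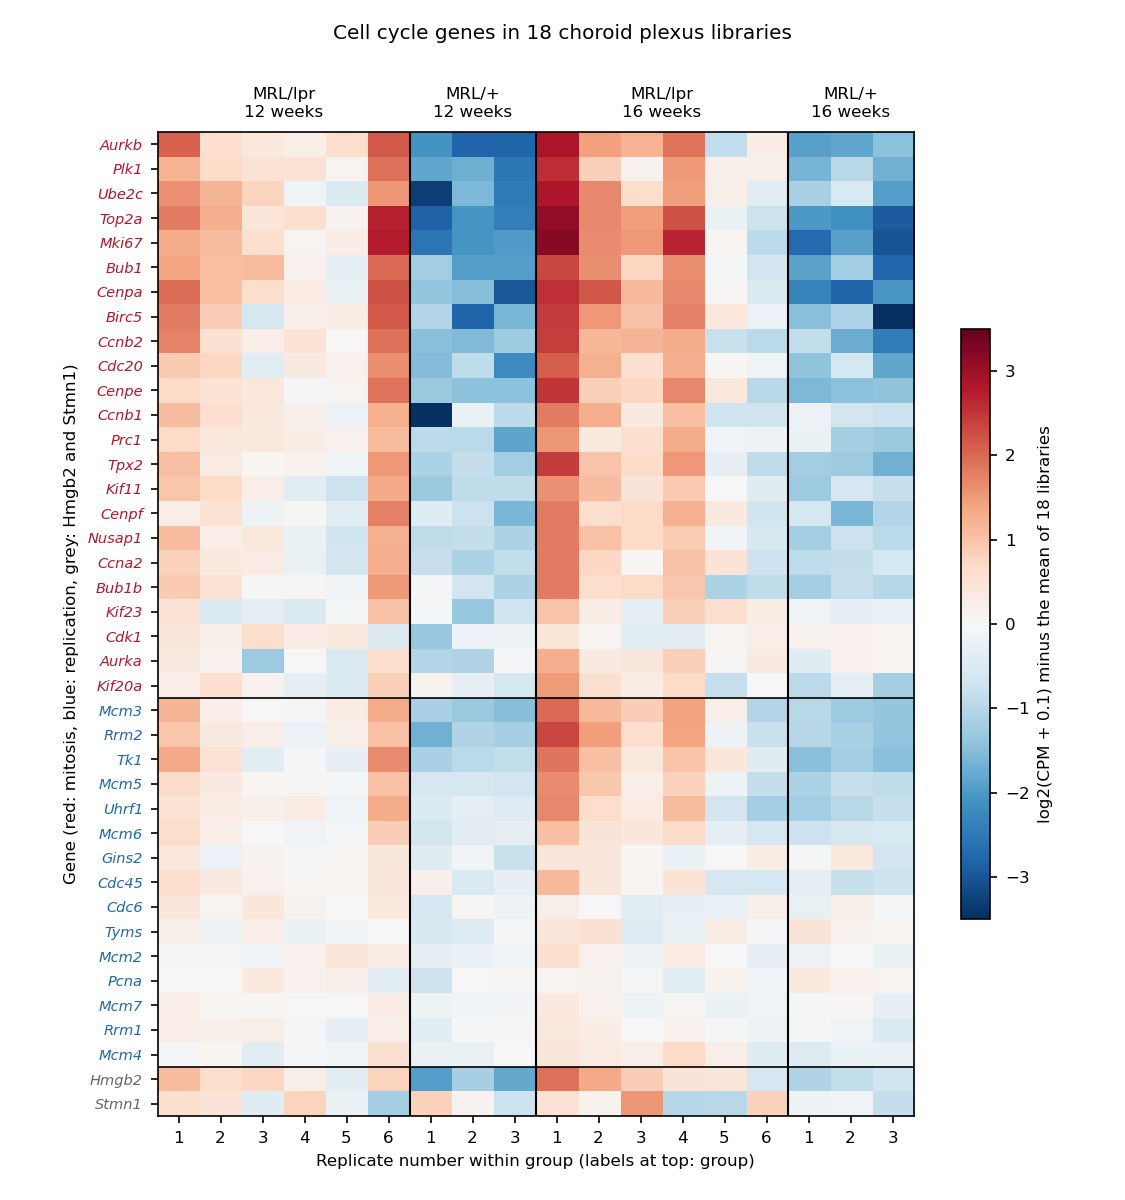
Heatmap of log2(CPM + 0.1) of the 40 genes, each centred on its mean over the 18 libraries, with genes in rows by role and libraries in columns by group. Most mitosis rows are red in MRL/lpr and blue in MRL/+ libraries, with the deepest red in MRL/lpr replicate 6 of 12 weeks and replicate 1 of 16 weeks, while Pcna, Mcm7 and Rrm1 stay near white.

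Among the mitosis genes, Mki67 and Top2a both rose in MRL/lpr. Mki67 (chromosome 7, 135689784 to 135716361, minus strand, GRCm38), which coats mitotic chromosomes and marks cycling cells, ran from 4.99 to 31.6 CPM (median 8.47) in MRL/lpr, against 0.699, 1.02 and 1.10 CPM in MRL/+. Its log2 fold change was 3.65 (SE 0.90, adjusted p = 0.021), a call lost without the low count filter (adjusted p = 0.0633). MRL/lpr replicate 6 stood far above the other 5, and without it the value was 3.05. Top2a (chromosome 11, 98992943 to 99024189, minus strand), the topoisomerase that untangles sister chromatids, ran from 4.62 to 27.9 CPM (median 8.30) in MRL/lpr, against 0.508, 0.940 and 0.706 CPM in MRL/+, a log2 fold change of 4.02 (SE 0.89, adjusted p = 0.012). The groups did not overlap for either gene.

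Mitotic kinase genes held few counts in the controls. Aurkb, the kinase of the chromosomal passenger complex, had 0.723 to 3.01 CPM in MRL/lpr and 0.0636, 0 and 0 CPM in MRL/+. The 3 controls held 1 count in all against 123 in MRL/lpr, a ratio of 63.8 per depth with an exact 95% interval of 11.2 to 2540. Plk1, the polo-like kinase that drives mitotic entry, had 83 counts in MRL/lpr against 2 in MRL/+, a ratio of 21.5 (5.77 to 181). Both rose (adjusted p = 0.0076 and 0.0099). Bub1, a kinase of the spindle checkpoint, rose with a log2 fold change of 3.39 (SE 0.86) on 5 control counts. Birc5, also known as survivin, rose by 3.01 (SE 0.86, adjusted p = 0.047), a call that was lost without MRL/lpr replicate 1, 2 or 6 (adjusted p = 0.0868, 0.0594 and 0.0596).

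The other mitosis genes that rose were Cenpa, Ube2c, Cdc20 and Prc1. Cenpa, the histone of centromeres, ran from 1.05 to 6.42 CPM (median 2.39) in MRL/lpr, against 0.445, 0.392 and 0.0784 CPM in MRL/+, with a log2 fold change of 3.32 (SE 0.82, adjusted p = 0.021). Ube2c and Cdc20, a conjugating enzyme and an activator of the anaphase promoting complex, had log2 fold changes of 4.07 (SE 0.97) and 2.41 (SE 0.63). The value of Ube2c was 3.48 without MRL/+ replicate 1 and 5.33 without replicate 2, Aurkb was 7.31 and Birc5 3.66 without replicate 1, and Cdc20 was not called without MRL/lpr replicate 1 (adjusted p = 0.0539). Prc1, which bundles midzone microtubules, rose by 1.78 (SE 0.44). The other 13 mitosis genes did not pass, with log2 fold changes from 0.50 for Kif20a, a kinesin of cytokinesis, to 2.77 for cyclin gene Ccnb2 (adjusted p = 0.0502). Ccnb2 ran from 0.871 to 3.62 CPM in MRL/lpr, against 0.254, 0.235 and 0.314 CPM in MRL/+, and Kif11, the motor that pushes spindle poles apart, from 1.83 to 7.99 CPM in MRL/lpr against 1.21 to 1.65 CPM in MRL/+. Neither gene's groups overlapped. Among the 13, groups overlapped for Cdk1, Bub1b, Aurka, Kif20a and Kif23.

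**Figure D2:**
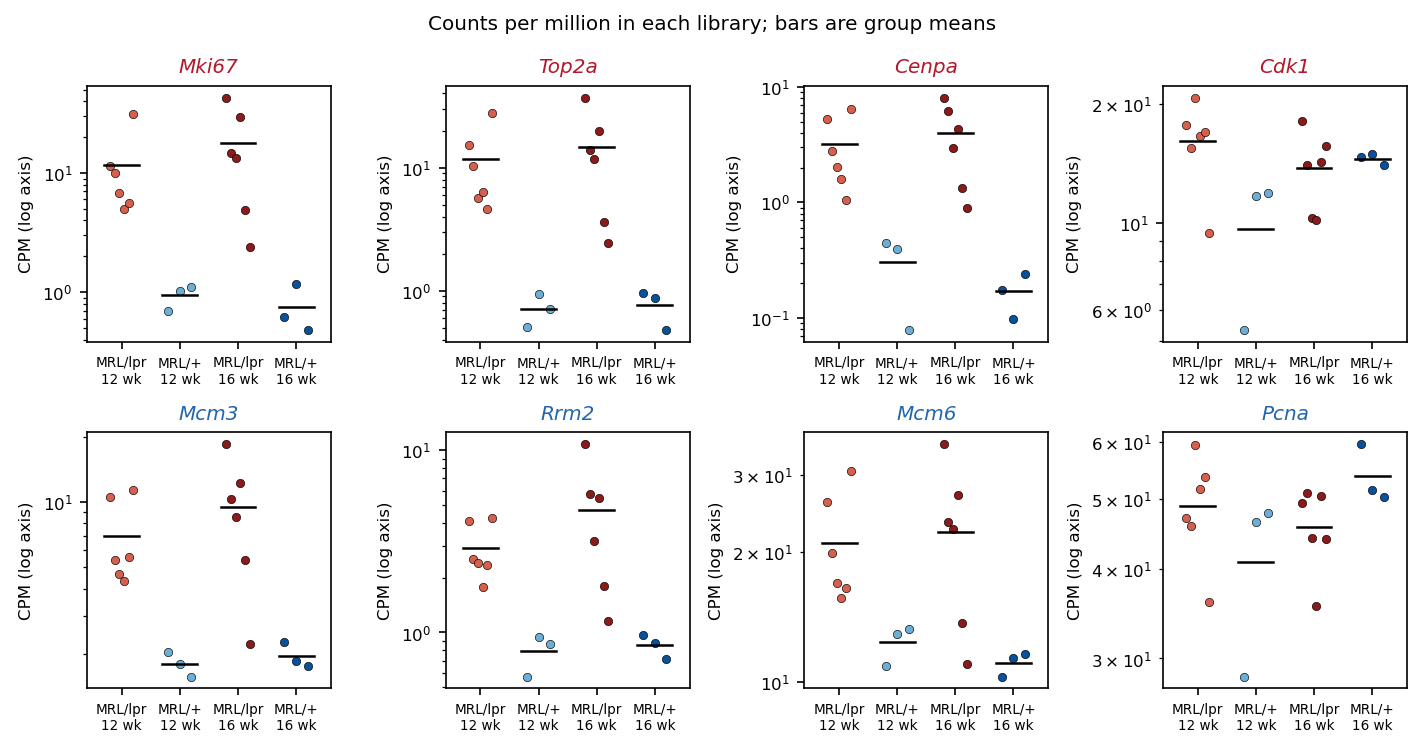
CPM of 8 genes in each library on a log axis, by group, with group means as bars. The 3 mitosis genes Mki67, Top2a and Cenpa lie apart between strains at both ages, Mcm3, Rrm2 and Mcm6 differ less, and Cdk1 and Pcna overlap.

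Among replication genes at 12 weeks, the MCM subunit gene Mcm3 rose. It had 4.34 to 11.4 CPM (median 5.51) in MRL/lpr, against 2.03, 1.80 and 1.57 CPM in MRL/+, a log2 fold change of 1.95 (SE 0.52, adjusted p = 0.032), which did not pass without MRL/lpr replicate 1 (adjusted p = 0.0641). The groups did not overlap. Tk1, which salvages thymidine, ran from 1.77 to 7.65 CPM (median 2.85) in MRL/lpr, against a lowest of 1.02 and a median of 1.18 CPM in MRL/+. Rrm2, the small subunit of ribonucleotide reductase, ran from 1.77 to 4.24 CPM (median 2.48) in MRL/lpr, against 0.572, 0.940 and 0.863 CPM in MRL/+. Rrm2 and Tk1 had log2 fold changes of 1.87 (SE 0.58, adjusted p = 0.064) and 1.74 (SE 0.54, adjusted p = 0.065). Their groups did not overlap either, but they did not pass. The helicase genes Mcm5 and Mcm6 were at 1.04 (SE 0.42) and 0.76 (SE 0.30) with groups that did not overlap, and Uhrf1, which reads newly copied methylated DNA, at 0.90 (SE 0.50). The large subunit gene Rrm1 was at 0.21 (SE 0.15), Mcm4 at 0.20 (SE 0.20), Mcm7 at 0.24 (SE 0.13) and the clamp gene Pcna at 0.26 (SE 0.17). Hmgb2, a chromatin protein, ran from 7.14 to 20 CPM in MRL/lpr, against 2.35, 4.07 and 2.59 CPM in MRL/+, and rose by 2.20 (SE 0.46, adjusted p = 0.0085). Stmn1, which destabilises microtubules and is also abundant in neurons, was at -0.05 (SE 0.52), and at 0.19 when libraries were scaled to epithelium genes.

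At 16 weeks, 22 of the 40 rose and 0 fell by the same test, against 8.49% of all genes that rose. Of the 28 genes that would pass the low count filter on MRL/+ libraries alone 11 rose, and of the 12 that entered through their MRL/lpr libraries 11 rose. These were 16 of 23 mitosis genes, 5 of 15 replication genes and Hmgb2. The median log2 fold change was 2.5 over mitosis genes, 0.58 over replication genes and 0.03 over all genes. All 12 genes called at 12 weeks were among the 22. Fewer genes, 17, had groups that did not overlap, 14 of them of mitosis, against 9.91% of all genes. Of the 12 that entered through MRL/lpr, all but Ccnb1, Ccnb2 and Cenpf are among the 17. The libraries decided many calls. Without MRL/+ replicate 1, 2 and 3, 5, 6 and 2 genes passed, against 3.99%, 4.02% and 3.31% of all genes that rose. In a fit of the 9 libraries of that age 11 passed, against 6.53%. Without the libraries that held neighbouring tissue 0 passed, against 2.69%, and the median over the 40 was 1.67. There 29 of the 40 had an unadjusted p under 0.05, again without a counted share of all genes from that fit. With all libraries 28 of the 40 had such a p, against 4773 of 16598 genes. Scaling to epithelium genes gave 35, where 46.6% of all genes were called.

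Mki67 ran from 2.38 to 43.0 CPM (median 14) in MRL/lpr, against 0.614, 1.17 and 0.479 CPM in MRL/+. It had a log2 fold change of 4.59 (SE 0.96, adjusted p = 0.0058). Cenpa ran from 0.901 to 8.07 CPM in MRL/lpr, against 0.175, 0.0975 and 0.239 CPM in MRL/+, with a log2 fold change of 4.44 (SE 0.91, adjusted p = 0.0053). Top2a was at 4.25 (SE 0.90), and Bub1 held 129 counts in MRL/lpr against 3 in MRL/+, a ratio of 18.8 (6.31 to 92.6). MRL/lpr libraries spread widely, from replicate 1, the highest for 23 of 23 mitosis genes, to replicate 6, the lowest for 16. Tpx2, which activates Aurora A at the spindle, rose by 2.68 (SE 0.68), Cenpe, a kinetochore motor, by 2.97 (SE 0.71), and Nusap1, a spindle protein, by 1.83 (SE 0.51). Without MRL/lpr replicate 1, 6 genes were lost, namely Cenpf, Kif11, Nusap1, Ube2c, Prc1 and Mcm6. Of these Cenpf, Kif11 and Mcm6 were also lost without replicate 2, 3 or 4, Ube2c without replicate 2 or 4 and Prc1 without replicate 4.

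Birc5, at 3.52, was 4.16 without MRL/+ replicate 2 and 2.91 without replicate 3, Bub1, at 4.0, was 4.93 and 3.40 in the same fits, and Ccnb2, at 3.10 (SE 0.84), was 3.88 without replicate 1. Of the replication genes, Rrm2 rose by 2.45 (SE 0.59), Tk1 by 2.37 (SE 0.57), Mcm3 by 2.28 (SE 0.53), Mcm5 by 1.63 (SE 0.44) and Mcm6 by 1.0 (SE 0.31). Mcm6 ran from 11 to 35.4 CPM (median 22.9) in MRL/lpr, against 10.3, 11.4 and 11.6 CPM in MRL/+, so the groups overlapped. Uhrf1 and the cyclin gene Ccna2 lay at the threshold (adjusted p = 0.0516 and 0.05) and did not pass. Cdk1, the kinase that drives mitosis, was at -0.08 (SE 0.25), Pcna at -0.23 (SE 0.17), Tyms, thymidylate synthase, at -0.10 (SE 0.21) and the loading factor gene Cdc6 at -0.06 (SE 0.21). Scaling to choroid plexus epithelium genes, which moved the median of all genes from 0.03 to 0.73, put these 4 at 0.62, 0.48, 0.59 and 0.65, none of them called.

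**Figure D3:**
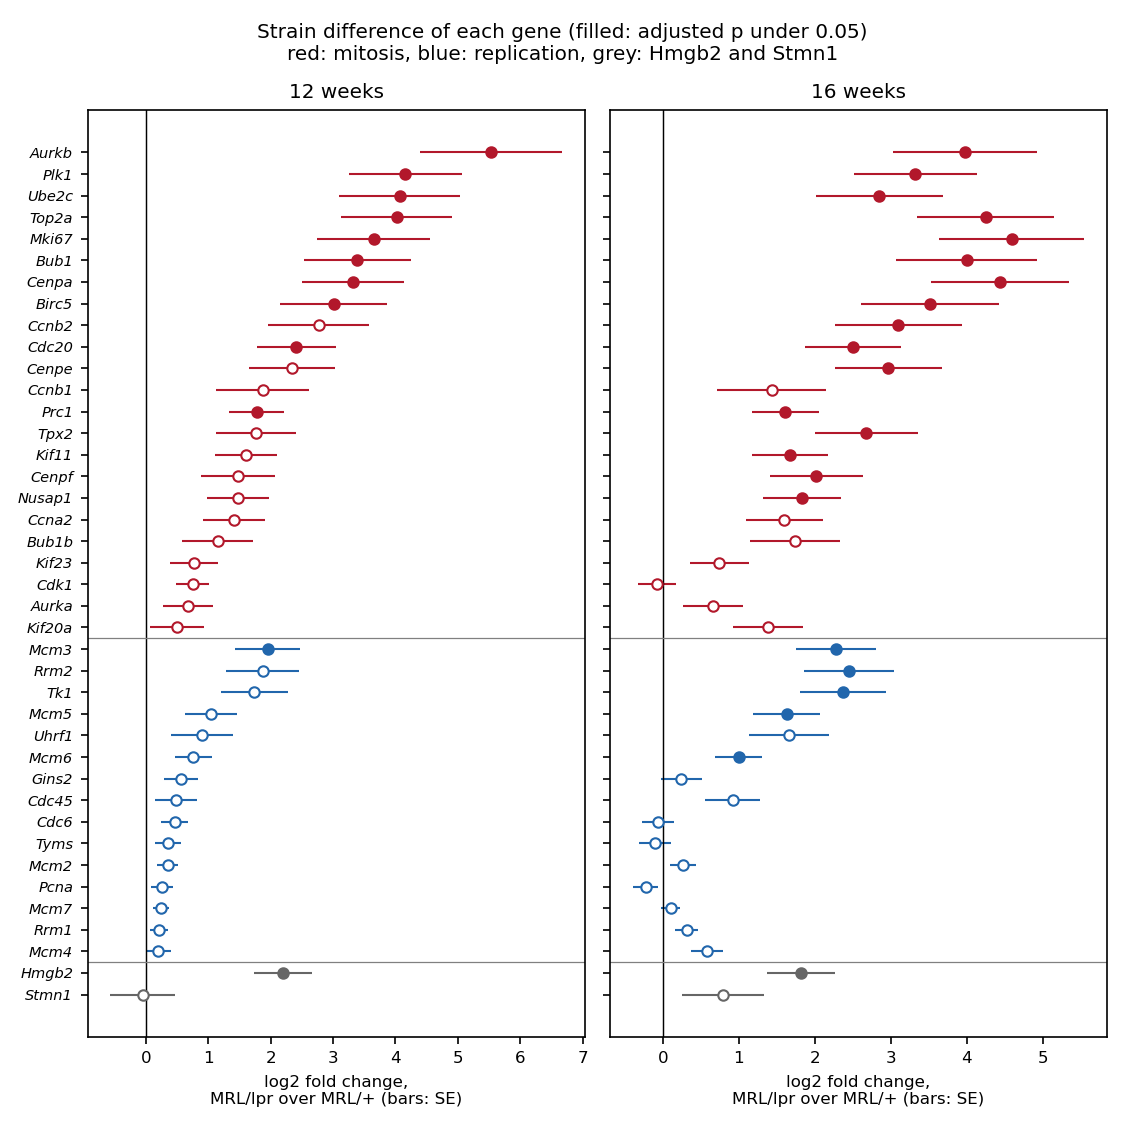
Log2 fold change of MRL/lpr over MRL/+ with its SE for the 40 genes at 12 weeks (left) and 16 weeks (right). Filled points passed an adjusted p under 0.05. Most mitosis genes lie right of 1. Most replication genes lie below 1, apart from Mcm3, Rrm2, Tk1 and Mcm5 at both ages and Uhrf1 (1.66) at 16 weeks, where Mcm6 lies at 1.0.

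Levels per kilobase of exon put Cdk1 and Pcna apart from the rest. Cdk1 was the highest mitosis gene in all 4 groups, with a mean of 3.28 CPM per kilobase in MRL/lpr against 1.95 in MRL/+ at 12 weeks, and 2.79 in MRL/lpr against 2.96 in MRL/+ at 16 weeks. The second highest mitosis gene was at 1.30 and 1.79 in MRL/lpr (Top2a and Mki67) and at 0.501 and 0.730 in MRL/+ (Bub1b and Aurka). Pcna was the highest replication gene, at 20.4 in MRL/lpr against 17 in MRL/+ at 12 weeks, and 19.1 in MRL/lpr against 22.4 in MRL/+ at 16 weeks. The median over the mitosis genes was 0.699 in MRL/lpr against 0.128 in MRL/+ at 12 weeks, and 0.939 in MRL/lpr against 0.155 in MRL/+ at 16 weeks. The median over the replication genes was 1.68 in MRL/lpr against 0.896 in MRL/+ at 12 weeks, and 2.02 in MRL/lpr against 0.661 in MRL/+ at 16 weeks. In CPM, Cdk1 had 9.43 to 20.8 in MRL/lpr against 5.34, 11.7 and 11.9 in MRL/+ at 12 weeks, and 10.2 to 18.1 in MRL/lpr against 14.7, 15 and 14 in MRL/+ at 16 weeks. Its groups overlapped at both ages. At 12 weeks its log2 fold change was 0.75 (SE 0.26, adjusted p = 0.1 by edgeR), which did not pass. It was called higher at that age by DESeq2 (adjusted p = 0.0399) and by edgeR with epithelium scaling (1.14, adjusted p = 0.0199). It was also called in 1 of 9 edgeR fits that left out 1 library. The promoter of Cdk1, printed above with those of Mki67 and Top2a, holds both marked motifs. The strand setting of the counting is not given. Exons of another gene overlap 67.3% of Gins2 (Gse1), 33.2% of Kif20a (Cdc23) and 22.8% of Ube2c (Tnnc2). Tnnc2, one of the muscle markers, had 0 counts in every library. That includes MRL/+ replicate 1 of 16 weeks, where the muscle gene Mylpf held 1648 counts. The 0 therefore does not show that the overlap is without effect, and whether reads in shared exons were lost was not tested.

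Within a strain, no member passed the test between 16 and 12 weeks. In MRL/lpr, 0 of 40 passed by edgeR and by DESeq2, against 0.0361% of all genes in edgeR. An unadjusted p under 0.05 was held by 0 members in edgeR, against 1117 of 16598 genes, and by 1 in DESeq2. Leaving out any 1 library also gave 0 calls, but single libraries moved the values. Without MRL/lpr replicate 6 of 12 weeks, 6 members had an unadjusted p under 0.05. The share of all genes with such a p was not counted there or in DESeq2. The median over the 40 was 0.52 without that replicate, against 0.28 with all libraries and -0.00 without replicate 1 of 16 weeks. The smallest p values belonged to Aurka, the Aurora A kinase gene, at a log2 fold change of 0.63 (SE 0.31, adjusted p = 0.76), Cdc6 at -0.31, Rrm2 at 0.69 (0.29 without replicate 1 of 16 weeks) and the helicase gene Mcm4 at 0.24 (0.41 without replicate 6 of 12 weeks and 0.16 without replicate 4 of 16 weeks). In MRL/+, 0 of 40 passed by either tool, against 0% of all genes in edgeR and 0.0944% in DESeq2. An unadjusted p under 0.05 was found for 3 members in DESeq2 and for 1 in edgeR, Tyms, at 0.58 (SE 0.25, adjusted p = 0.38). Of all 16598 genes 2173 had one in edgeR. Pcna was at 0.40, Cdk1 at 0.60 and Ube2c at 1.76 (SE 1.14). Without MRL/+ replicate 1 of 12 weeks all 3 were lower, with Pcna at 0.21 and Cdk1 at 0.33, and Ube2c was at 3.02 without replicate 2. The strain by age interaction passed for 0 of 40 by either tool, against 0% of all genes in both. An unadjusted p under 0.05 was found for 2 members in DESeq2 and for 1 in edgeR, Cdk1, at -0.83 (SE 0.36, adjusted p = 0.36). In edgeR 2286 of 16598 genes had one. Pcna was at -0.49, Cdc6 at -0.52 and Tyms at -0.45. Without MRL/+ replicate 1 of 12 weeks, Cdk1 was at -0.52 and Pcna at -0.28. A missed threshold with 3 controls per age does not show that the strain difference was alike at both ages.

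The level of T and B cell markers moved with the members across libraries. The summed CPM of 37 T and B cell markers was 134 to 498 (median 173) in MRL/lpr against 11.4 to 38.7 in MRL/+ at 12 weeks, and 100 to 687 (median 436) in MRL/lpr against 8.06 to 19.4 in MRL/+ at 16 weeks. Of these, 6 were at 0 in all MRL/+ libraries of 12 weeks and 4 in those of 16 weeks. Thy1 alone held 3.03 to 32.5 CPM in the MRL/+ libraries. The MRL/lpr library with the highest sum within its age, replicate 6 of 12 weeks and replicate 1 of 16 weeks, was also the highest of that age's MRL/lpr libraries for 21 and 23 of the 23 mitosis genes. A slope on a lymphocyte score, the mean centred log2 CPM of 35 of these markers, was fitted within the 12 MRL/lpr libraries with age as a term, so it does not use the difference between strains. By edgeR's test 29 of 40 slopes were above 0 and 0 below at an adjusted p under 0.05, against 12.5% of 15346 genes above.

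The 29 were 20 of 23 mitosis genes, 8 of 15 replication genes and Hmgb2. The median slope was 0.71 log2 units per unit of score over mitosis genes, 0.23 over replication genes and -0.01 over all genes. Top2a had a slope of 1.07 (SE 0.09, adjusted p = 3.5e-06), Mki67 1.11 (SE 0.10, adjusted p = 6.6e-06), Mcm3 0.73 (SE 0.06, adjusted p = 3.9e-06) and Mcm6 0.44 (SE 0.04, adjusted p = 7.9e-06). Cdk1 was at -0.11 (SE 0.09) and Pcna at -0.09 (SE 0.06). The other 9 genes that did not pass were Mcm7, Rrm1, Aurka, Kif23, Mcm2, Gins2, Tyms, Stmn1 and Cdc6. Leaving out any 1 library gave 26 to 30 calls.

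**Figure D4:**
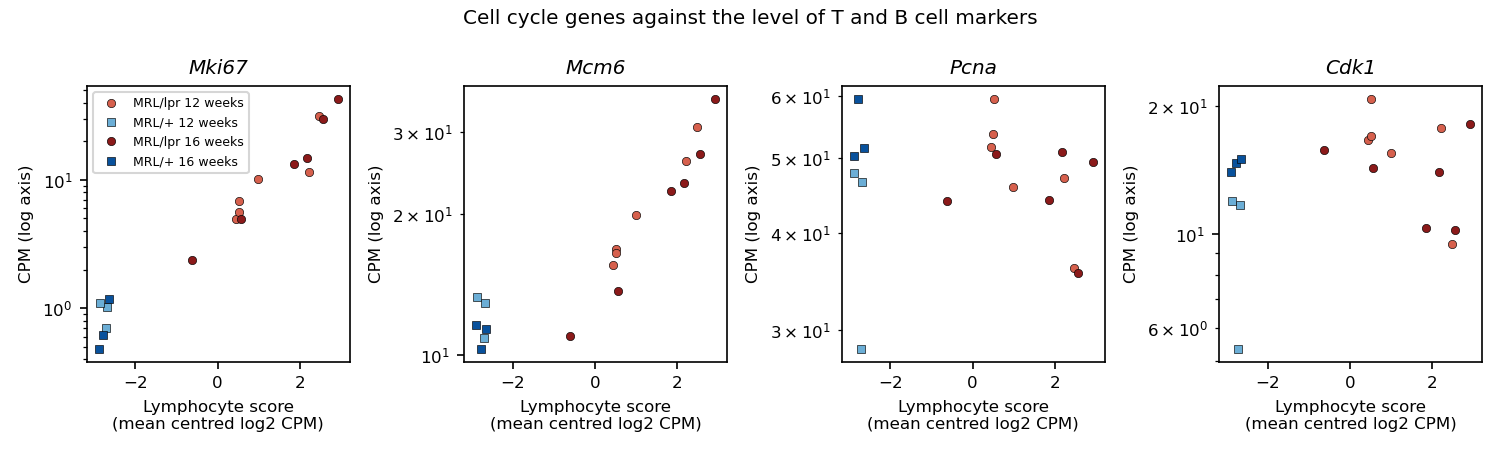
CPM of Mki67, Mcm6, Pcna and Cdk1 on a log axis against the lymphocyte score of each library, computed over all 18 libraries. Mki67 and Mcm6 climb with the score within MRL/lpr, where the slopes were 1.11 and 0.44, whereas Pcna and Cdk1 do not.

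Other cell type markers moved with the same score. Of macrophage markers 15 of 17 had a slope above 0, of plasma cell markers 9 of 12, of germinal centre markers 4 of 6, of fibroblast markers 4 of 10, of endothelial markers 3 of 12 and of choroid plexus epithelium markers 0 of 23, all by the same test that put 12.5% of all genes above 0. A macrophage score in place of the lymphocyte score gave 27 of 40 members, against 10.4% of all genes above 0. A plasma cell score gave 28, against 9.04%. The part of each cell type in the result was not tested. With the lymphocyte score as a covariate over all 18 libraries, the median strain difference of the members was -0.63 at 12 weeks and -0.69 at 16 weeks, and 6 genes (Bub1b, Tpx2, Mcm3, Mcm5, Mcm6 and Uhrf1) were called lower at 12 weeks and 1 (Mcm6) at 16 weeks, where 7.18% and 0.265% of all genes were called in either direction. The score ran from -0.62 to 2.92 in MRL/lpr and from -2.89 to -2.65 in MRL/+, so no library of one strain had a score found in the other and this fit reads beyond the data.

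Mki67 per lymphocyte marker overlapped between the ages. The log2 of Mki67 CPM over the summed T and B marker CPM was -4.74 ± 0.52 at 16 weeks and -4.58 ± 0.47 at 12 weeks in MRL/lpr (SD, n = 6 each), a difference of -0.16 (exact two-sided permutation test over 924 splits, p = 0.574). Per 100 CPM of markers, Mki67 was at 2.37 to 6.33 CPM in MRL/lpr and 1.81 to 9.66 CPM in MRL/+. The ranges overlapped, and the control values rest on 6 to 14 counts of Mki67 per library. The MRL/+ marker sums rest in large part on 1 gene, Thy1. At 12 weeks Thy1 held 32.5 of 38.7, 15.2 of 22.2 and 6.04 of 11.4 CPM in MRL/+ replicates 1, 2 and 3. At 16 weeks it held 12.3 of 19.4, 9.94 of 18.3 and 3.03 of 8.06 CPM. In MRL/lpr replicate 6 of 16 weeks it held 42.9 of 100 CPM. The MRL/+ ratios therefore depend on that marker and cannot be read as Mki67 per lymphocyte. With the B cell list alone as denominator the difference was 0.17 (exact permutation p = 0.413), with the T cell list alone -0.26 (exact p = 0.506), and with Top2a in place of Mki67 -0.42 (exact p = 0.0866). Without 1 library it ran from -0.32, without replicate 1 of 12 weeks, to -0.03, without replicate 6 of 16 weeks.

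**Figure D5:**
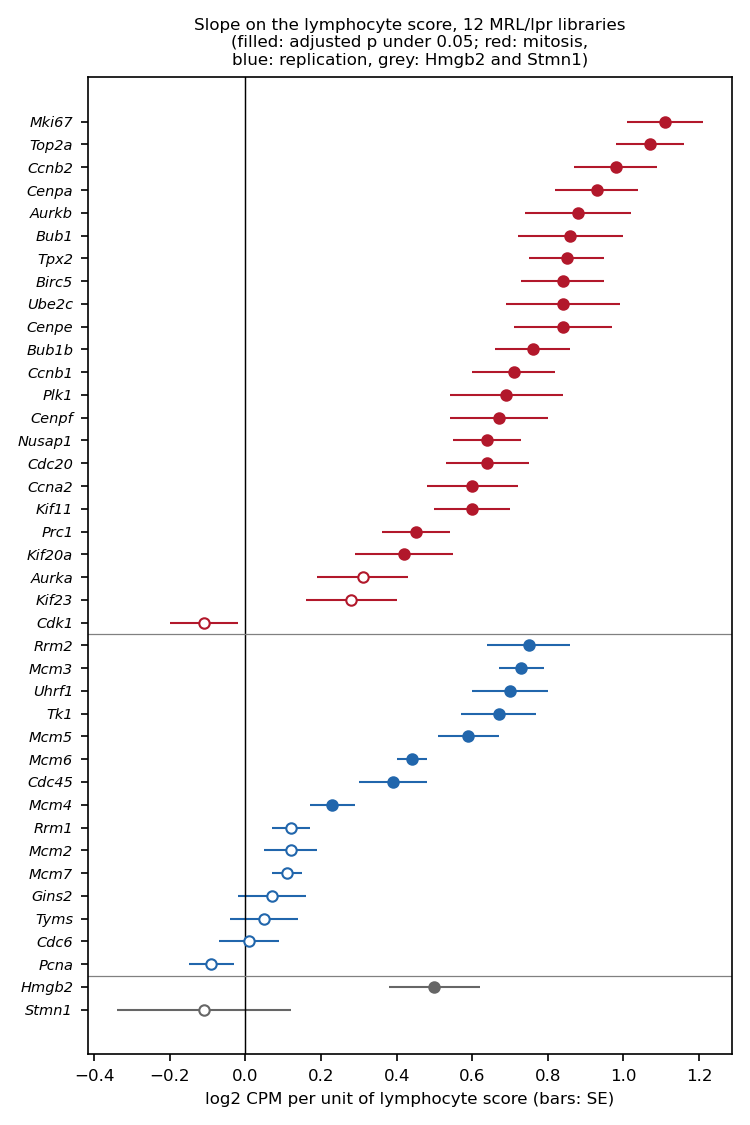
Slope of each of the 40 genes on the lymphocyte score with its SE within the 12 MRL/lpr libraries, by role. Filled points passed an adjusted p under 0.05, and the mitosis genes reach 1.11 while Cdk1, Pcna and Stmn1 lie just below 0.

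Other genes of the cycle were taken from lists of G1 entry, inhibitors, replication and mitosis. The counts of those that rose stand beside 5.01% of all genes at 12 weeks and 8.49% at 16 weeks. Of G1 genes 0 of 19 rose and 1 fell at 12 weeks, against 1.34% of all genes that fell. This was cyclin D2 gene Ccnd2 at -0.66 (SE 0.19, adjusted p = 0.045), a call lost in 8 of 9 fits that left out 1 library of that age, and at -0.33 with epithelium scaling. At 16 weeks 4 of 19 rose, among them Ccnd1, cyclin D1, at 1.89 (SE 0.40) and its partner kinase gene Cdk6 at 2.93 (SE 0.71), which was lost without MRL/+ replicate 2 or 3 (adjusted p = 0.0701 and 0.0837). Of 12 inhibitor genes 0 passed at 12 weeks, with 3 at an unadjusted p under 0.05, against 3560 of 16598 genes, a similar share. Among them Cdkn2a, an inhibitor of cyclin D kinases, held 41 counts in MRL/lpr against 0 in MRL/+ (adjusted p = 0.062). The exact lower limit of its ratio was 5.51, and the ratio was 7.09 with the controls together set to 3 counts. Of the 41 counts, 19 came from MRL/lpr replicate 6 and 11 from replicate 1, with 1 each in replicates 2 and 3. At 16 weeks 3 rose (Btg1, Gadd45a and Gadd45b), while Cdkn1c, a kinase inhibitor, fell by 0.80 (SE 0.21), against 2.64% of all genes that fell. Cdkn1c was at -0.13 (adjusted p = 0.609) with epithelium scaling. Cdkn1c and Btg1 were lost without MRL/+ replicate 1, 2 or 3, and Gadd45a in 6 of 9 fits that left out 1 library, namely these 3 and MRL/lpr replicates 1, 2 and 3. Of 27 further replication genes 1 rose at 12 weeks (Gmnn, the licensing inhibitor geminin, 0.97), a share below that of all genes, and the Gmnn call was lost in 7 of 9 fits that left out 1 library (adjusted p up to 0.163). At 16 weeks 9 of the 27 rose, among them Cdt1, a licensing factor, at 1.83 (SE 0.38). Of 44 further mitosis genes 12 rose at 12 weeks and 28 at 16 weeks and 0 fell. Ndc80, the kinetochore gene, held 134 counts in MRL/lpr against 0 in MRL/+ at 16 weeks. The exact lower limit of its ratio was 15.7, and the ratio was 19.6 when the 3 controls together are set to 3 counts. Ncapg, a condensin subunit, held 243 counts in MRL/lpr against 1 in MRL/+, a ratio of 107 (18.9 to 4220).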

How the data were processed

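RNA of mouse choroid plexus was sequenced in 18 libraries. The deposited table holds whole-number read counts per gene. Per the submitters' processing notes, the authors aligned reads with STAR 2.5.3a to GRCm38, counted with featureCounts 1.26.0 and used DESeq2 1.16.1. The sources used here do not give the strand or multi-mapping settings, which matters for overlapping genes.

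Counts were analysed with edgeR 4.0.16 in R 4.3.3. Genes were filtered with filterByExpr by group (minimum count 10), which left 16598 genes (15346 in the fit of 12 MRL/lpr libraries), scaled with TMM and fitted with 1 mean per group by the robust quasi-likelihood method. P-values were adjusted with Benjamini-Hochberg over all genes tested. The lymphocyte score used log2 CPM with a prior count of 2. Count ratios carry exact 95% intervals and a floor of 3 counts. The code was tested on simulated data.

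The members, lists and alternatives were chosen with earlier results of these data known. All 40 members could be named, the 4 with the smallest p in each age, interaction and slope comparison, and up to 3 per list of other cycle genes in each strain comparison. Cdk1 and Pcna slopes, the 9 other slopes that did not pass and Gadd45b were named after their values were seen. Alternatives were RLE factors, DESeq2 1.42.0, no filter, a replicate block, epithelium scaling, 9 libraries of 1 age, a lymphocyte covariate, other scores, and leaving out libraries. No pair of libraries held the same values.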

Additional observations from a re-analysis of the deposited data

Results flagged for a closer look

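In 5 of 80 sets of 6 libraries, 1 library stood far from the other 5 in CPM. For independent sets of normally distributed values chance gives a share of about 1 in 20. The CPM were used without logs and their distribution was not checked, so that share is no background for the 5. The sets here are also not independent, since the genes move together across libraries and most of the 5 come from 1 library. In MRL/lpr replicate 6 of 12 weeks this held for Mki67 at 31.6 CPM (next library 11.5), Cenpe at 4.85 CPM (next 2), Cenpf at 4.99 CPM (next 2.03) and Uhrf1 at 7.86 CPM (next 4.50). That library had a T and B marker sum of 498 CPM, close to the 469 CPM of replicate 1, where Mki67 was at 11.5 CPM. Its summed endothelial markers were at 271 CPM, against 66.3 to 112 CPM in the other 5. In MRL/lpr replicate 1 of 16 weeks it held for Plk1 at 3.36 CPM (next 1.55), and that library had the highest marker sum of its group, 687 CPM. The part of either cell type in these values was not tested.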

How the results depend on the processing

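Counts of members called kept within 1.5 times of the reported 12 and 22 with RLE factors and without the low count filter. With RLE they were 12 and 24, where 5.13% and 8.74% of all genes rose. Without the filter they were 10 and 20, against 2.07% and 3.67%. There Mki67 and Birc5 lost their calls at 12 weeks (adjusted p = 0.0633 and 0.076), and Cenpf and Mcm6 theirs at 16 weeks. Counts moved to 21 at 12 weeks with DESeq2, where 7.34% of all genes rose. At 16 weeks they moved to 35 with epithelium scaling (where 46.6% of all genes were called). With the 9 libraries of that age alone they moved to 11, where 6.53% of all genes rose. They were 0 at both ages without the libraries that held neighbouring tissue, where 0.168% and 2.69% of all genes rose. With the lymphocyte covariate they were 6 and 1, all lower. Leaving out 1 library gave 0 to 16 calls at 12 weeks, 2 to 28 at 16 weeks and 26 to 30 for the slope, and 0 for both age comparisons and the interaction. In the first 3 sets of fits 1.33% to 5.87%, 3.31% to 10.4% and 9.72% to 15.6% of all genes were called higher. Leaving out a control leaves 2 in its group. The slope gave 24 to 30 calls under the other settings, where 6.53% to 13.8% of all genes were called above 0. The Mki67 ratio ran from -0.32 to -0.03 with 1 library left out and was 0.17 with the B cell list, -0.26 with the T cell list and -0.42 with Top2a in place of Mki67. Deviations of 21 same-numbered pairs correlated from -0.62 to 0.45, with 6 over 0.1. Pairs of different number were not set beside them, so this cannot show whether the numbers pair the samples. The replicate block gave 12 and 21 calls, where 5.15% and 7.3% of all genes rose. It gave 24 for the slope (23 above 0, against 9.84% of all genes), and -0.16 for the ratio (exact sign-flip permutation p = 0.688).

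Directions turned, with log2 values as follows. With the replicate block: Stmn1 0.31 at 12 weeks, Cdk1 0.03, Tyms 0.00 and Cdc6 0.00 at 16 weeks. With epithelium scaling: Stmn1 0.19 at 12 weeks, Cdk1 0.62, Tyms 0.59, Pcna 0.48 and Cdc6 0.65 at 16 weeks. Without the libraries that held neighbouring tissue: Stmn1 0.05 at 12 weeks and Tyms 0.04 at 16 weeks. With 1 library left out, Stmn1 ran from -0.37 to 0.40 at 12 weeks, and at 16 weeks Cdk1 from -0.15 to 0.01, Tyms from -0.20 to 0.02, Cdc6 from -0.17 to 0.07 and Gins2 from -0.00 to 0.52. With the lymphocyte covariate at 12 weeks: Mki67 -1.04, Top2a -0.49, Ccnb1 -1.03, Ccnb2 -1.32, Ccna2 -1.08, Bub1 -0.18, Bub1b -2.01, Aurka -0.61, Cenpa -0.62, Cenpe -1.13, Cenpf -1.34, Kif11 -0.92, Kif20a -1.28, Kif23 -0.43, Tpx2 -1.76, Birc5 -0.64, Nusap1 -1.21, Cdc20 -0.33, Prc1 -0.06, Rrm1 -0.33, Rrm2 -1.17, Tk1 -1.13, Mcm2 -0.15, Mcm3 -1.05, Mcm4 -0.75, Mcm5 -1.35, Mcm6 -1.05, Mcm7 -0.26, Cdc45 -1.09, Uhrf1 -1.94, Stmn1 0.28, Cdk6 -1.70, Rbl1 -0.85, Btg1 -1.36, Gadd45b -1.22, Chaf1b -0.07 and Shcbp1 -0.09. With it at 16 weeks: Mki67 -0.83, Top2a -0.95, Cdk1 0.35, Ccnb1 -1.97, Ccnb2 -1.62, Ccna2 -1.20, Bub1 -0.14, Bub1b -1.92, Aurka -0.74, Aurkb -0.24, Cenpa -0.03, Cenpe -1.06, Cenpf -1.15, Kif11 -1.11, Kif20a -0.64, Kif23 -0.51, Tpx2 -1.46, Birc5 -0.46, Nusap1 -1.20, Ube2c -1.21, Cdc20 -0.59, Prc1 -0.52, Rrm1 -0.28, Rrm2 -1.16, Tk1 -0.74, Mcm2 -0.32, Mcm3 -1.19, Mcm4 -0.49, Mcm5 -1.15, Mcm6 -1.05, Mcm7 -0.45, Pcna 0.12, Gins2 -0.14, Cdc45 -0.92, Uhrf1 -1.71, Hmgb2 -0.55, Cdk6 -1.32, Btg1 -1.24, Cdkn1c 0.06, Dnmt1 -0.25, Pole -0.57 and Shcbp1 -0.40. The cause was not tested. Genes with fewer than 10 pooled control counts, such as Aurkb, Plk1 and Bub1, are limited by depth.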
